A study of Saccharomyces cerevisiae with 13 samples.

Results

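The genes described here turn inorganic sulfate into methionine, take methionine up or, in the case of MET28, regulate this route in budding yeast (Saccharomyces cerevisiae). They were chosen by their open reading frame (ORF) IDs and number 10 of the 6205 ORFs on the arrays. They are MET3 (YJR010W), MET14 (YKL001C), MET16 (YPR167C), MET10 (YFR030W), MET5 (YJR137C), MET17 (YLR303W), MET2 (YNL277W), MET6 (YER091C), MET28 (YIR017C) and MUP1 (YGR055W). No pair of them lies fewer than 123 protein-coding genes apart in the RefSeq order of assembly R64, so none are neighbours. Cells held in G1 by alpha factor, the mating pheromone that stops MATa cells, were released into the rich medium YEPD and sampled every 10 min from 0 to 120 min, a span the submitters describe as 2 cell cycles. Each of the 13 samples was labelled with Cy5 and hybridised on its own 2-colour array, with Cy3-labelled RNA from asynchronous cells, grown overnight in YEPD, as the reference. The sources used here name neither the strain, its genotype nor the medium used during the arrest. No time point was repeated, and whether all arrays used a single batch of the reference RNA is not stated.

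Sulfate enters the cell through permeases, is activated with ATP, and is then reduced stepwise to sulfide. Sulfide is joined to a carbon chain made from homoserine, which gives homocysteine, and a methyl group carried by folate turns homocysteine into methionine. The genes of this route are switched on together by the activator Met4, which sits on DNA with Cbf1, Met28, Met31 and Met32, and the ubiquitin ligase subunit Met30 restrains Met4 when sulfur amino acids are ample.

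Values are log2 ratios, taken as time point over reference. That direction is likely rather than stated: the median of 8 pheromone response genes was 2.91 at 0 min, and with the opposite direction every sign below would turn. The median at 0 min was 1.90 for 6 MATa-specific genes and 0.05 for 4 MATalpha-specific genes, although a ratio cannot show whether a gene is expressed at all. The titles carry 2 stamps of unstated meaning. Set A, the 4 arrays up to 30 min, has the first, and set B, the 9 arrays from 40 min on, has the other, so set and time cannot be told apart at the border between 30 and 40 min. Synchrony showed in the phase markers: all 3 G1/S genes, all 3 histone genes and all 3 M/G1 genes passed the test for a 60 min rhythm, and 1 of 3 G2/M genes did. The spread over all ORFs was wider in set A (SD 0.45 to 0.63) than in set B (SD 0.31 to 0.43). The lowest correlation between any pair of arrays was 0.118.

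The 10 genes stood above the reference for nearly the whole course, and their median was highest 10 min after release and lowest at 90 min. Of their 129 usable values, 127 were above 0, and 9 of the 10 genes were above 0 on every measured array, against 7.29% of 6183 ORFs. Their median was 1.20 at 0 min (2.31-fold over the reference), 1.74 at 10 min (3.34-fold), 1.27 at 40 min, 0.70 at 60 min and 0.45 at 90 min (1.37-fold), and it stood at 0.72 at 120 min (1.65-fold). In all, 9 genes had their highest value at 10 min, which was the highest array for 13.3% of ORFs, and 5 had their lowest at 90 min, against 7.81% of ORFs. MUP1 was the exception, with its highest value at 120 min.

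**Figure D1:**
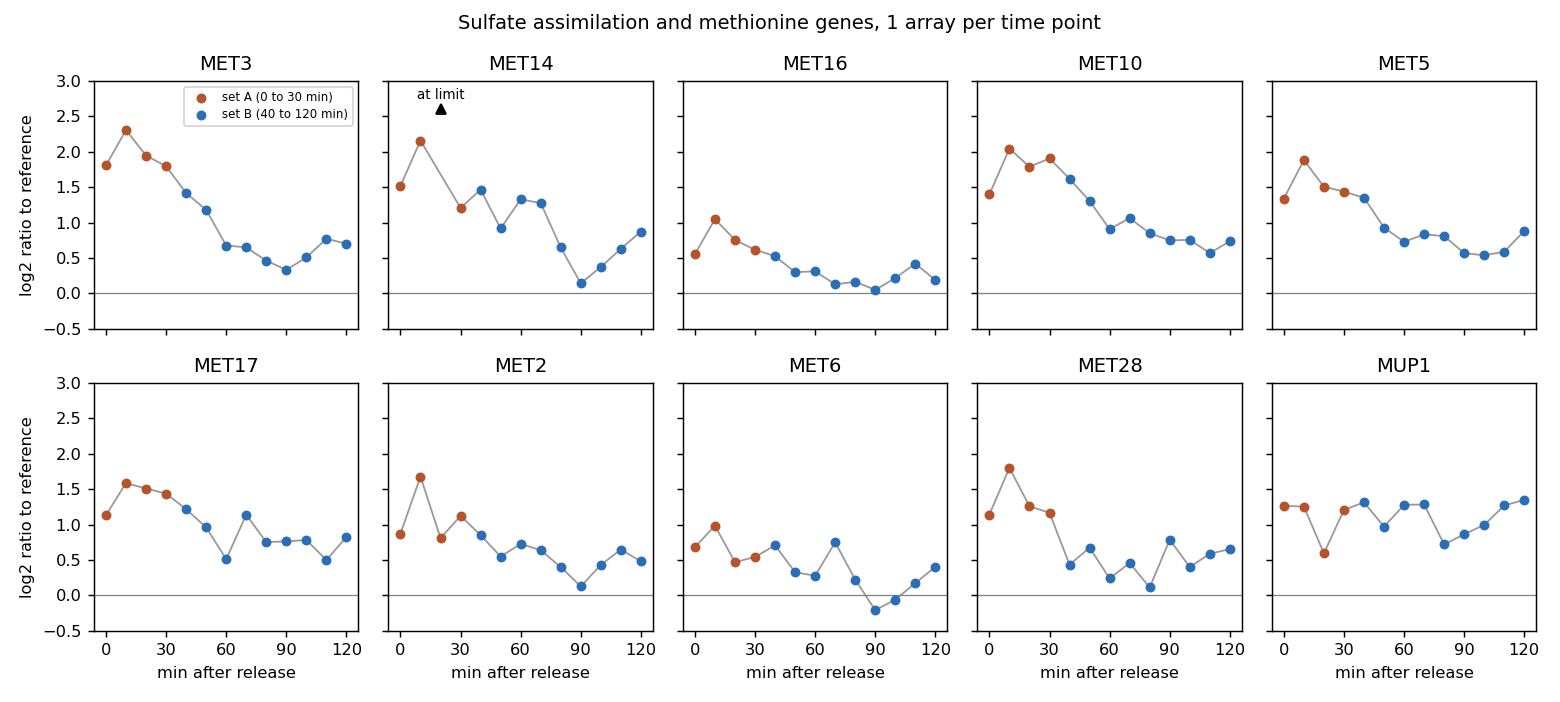
Log2 ratio to the asynchronous reference (y) against min after release (x) for each of the 10 genes. Each point is 1 array, coloured by the stamp set; the triangle marks the MET14 value at the limit of the file, drawn below its true height. MET3 runs from 2.31 at 10 min down to 0.33 at 90 min, while MUP1 stays between 0.59 and 1.35.

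The first steps of the route activate sulfate. MET3 encodes ATP sulfurylase, which makes adenylyl sulfate from sulfate and ATP. Its log2 ratios from 0 to 120 min in steps of 10 min were 1.81, 2.31, 1.95, 1.80, 1.42, 1.18, 0.68, 0.65, 0.46, 0.33, 0.51, 0.77 and 0.70. The 4 values of set A all lay above the 9 of set B, which held for 3 of the 10 genes and for 2.23% of ORFs, and the fall went on within set B until 90 min. MET14, the kinase that adds a second phosphate to adenylyl sulfate, gave 1.52 and 2.16 at 0 and 10 min, then 1.21, 1.46, 0.92, 1.33, 1.28, 0.65, 0.14, 0.37, 0.63 and 0.87 from 30 to 120 min. At 20 min MET14 lay at the limit of the file, a bound of at least 100-fold, between neighbours of 4.46-fold and 2.31-fold; this value was treated as missing. MET14 fell later than MET3: it was still at 1.28 at 70 min and then dropped to its lowest value, 0.14, at 90 min.

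The next enzymes reduce the activated sulfate. MET16, the PAPS reductase that releases sulfite, had the lowest median of the 10 genes, and ranged from 0.05 at 90 min through a median of 0.31 to 1.05 at 10 min. All 4 of its set A values, from 0.55 to 1.05, lay above all of its set B values, from 0.05 to 0.52. MET10 and MET5 encode the alpha and beta subunits of sulfite reductase, which makes sulfide. MET10 gave 1.40, 2.05, 1.79, 1.91, 1.62, 1.31, 0.91, 1.06, 0.85, 0.75, 0.76, 0.57 and 0.74 from 0 to 120 min. MET5 gave 1.34, 1.88, 1.51, 1.44, 1.35, 0.93, 0.73, 0.83, 0.81, 0.57, 0.54, 0.59 and 0.88. Both subunit genes kept a high level through 40 min, so that neither showed a gap between the sets, and both reached their lowest values at 100 or 110 min.

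Sulfide is then built into homocysteine and methionine. MET17, the O-acetylhomoserine sulfhydrylase that fixes sulfide, gave 1.13, 1.59, 1.51, 1.44, 1.22, 0.96, 0.51, 1.14, 0.75, 0.76, 0.78, 0.50 and 0.82. Its course dipped at 60 min and was back at 1.14 at 70 min. MET2, the homoserine O-acetyltransferase that supplies the carbon chain, ranged from 0.13 at 90 min through a median of 0.65 to 1.68 at 10 min, and its 10 min value stood 0.81 above that at 0 min, the largest such step of the 10 genes. MET6, the cobalamin-independent methionine synthase, ranged from -0.21 at 90 min through a median of 0.41 to 0.98 at 10 min. It was the only one of the 10 genes with values below 0, at 90 and 100 min, and at 70 min it stood at 0.75 between neighbours of 0.28 and 0.22. MET17, MET10, MET5, MET28 and MUP1 were also higher at 70 min than at 60 and 80 min, in part by very little. MUP1 stood at 1.28 at 60 min and 1.29 at 70 min, and MET5 at 0.83 at 70 min and 0.81 at 80 min. The share of ORFs with such a course was not counted.

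A regulator and a permease complete the set. MET28 encodes the bZIP protein that stabilises the Cbf1-Met4 complex on DNA. It gave 1.14, 1.80, 1.26 and 1.17 from 0 to 30 min and 0.43 at 40 min, then stayed between 0.11 and 0.79. That drop of 0.73 between 30 and 40 min was the largest of the 10 genes and coincides with the change of stamp set; the part of the set in it was not tested. MUP1, the high-affinity methionine permease, gave 1.27, 1.25, 0.59, 1.21, 1.31, 0.97, 1.28, 1.29, 0.72, 0.87, 0.996, 1.27 and 1.35. Its values at 0 and 120 min, 1.27 and 1.35, were close to each other, and its means were 1.08 ± 0.33 in set A (SD, 4 arrays) and 1.12 ± 0.23 in set B (SD, 9 arrays).

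Over all 13 arrays, 6 of the 10 genes were among the 19 highest of 6183 ORFs by mean log2 ratio. Their ranks were 6 for MET10 (1.21 ± 0.50, SD over 13 time points), 10 for MET3 (1.12 ± 0.66), 13 for MUP1 (1.11 ± 0.25), 15 for MET14 (1.04 ± 0.56, n = 12), 17 for MET5 (1.03 ± 0.43) and 19 for MET17 (1.01 ± 0.36). MET28 and MET2 ranked 64 and 69, and MET6 and MET16 ranked 261 and 262, with means of 0.41 each. These are ratios to the reference, not transcript levels, and neighbours in this order differ by less than their SD over time.

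**Figure D2:**
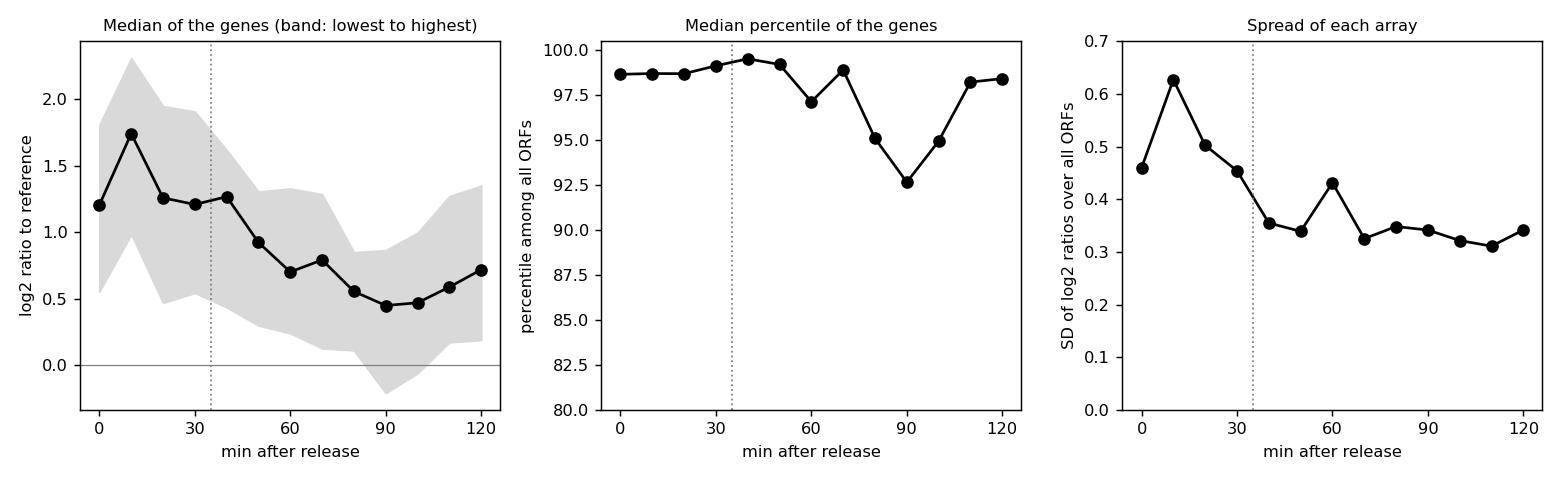
Left, median log2 ratio of the 10 genes by min after release, with a band from the lowest to the highest gene; centre, the median percentile of the genes among all ORFs of the same array; right, the SD of the log2 ratios over all ORFs of each array. The dotted line separates the stamp sets. The median falls from 1.74 at 10 min to 0.45 at 90 min, its percentile from 98.7 to 92.7, and the spread of the arrays is widest at 10 min (0.63).

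The place of the genes within each array was also followed. The median percentile of the 10 genes among all ORFs was 98.7 at 0, 10 and 20 min, 99.5 at 40 min, 97.1 at 60 min, 92.7 at 90 min and 98.4 at 120 min. Percentiles this close to 100 have little room to move, so they are not set against the size of the ratios. The lowest gene at 90 min, MET6, was at percentile 22.6. The 10 min array had the highest median of the genes and the widest spread (SD 0.63). The next highest medians were 1.27 at 40 min, with a spread of 0.35, and 1.26 at 20 min (9 genes), with a spread of 0.50. Whether the spread of an array bears on the median of the genes was not tested. With quantile normalization, which gives all arrays a common spread, the median difference between the cycles described next was -0.33 in place of -0.61.

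A first comparison asked whether the genes were expressed differently in the later and the earlier cycle, between arrays 60 min apart. Phase was not matched in every pair, since the first sets pheromone-held cells at 0 min against released cells at 60 min. FUS1, a pheromone response gene, was at 3.23 and 0.66 there, and the M/G1 gene EGT2 at -3.04 and -0.08. At 10 and 70 min EGT2 was at -3.26 and 1.28. The mean difference of 6 array pairs 60 min apart (60 to 110 min minus 0 to 50 min) was tested with limma. All 10 differences were below 0, against 53.3% of 6159 ORFs, with a median of -0.61 against -0.01 for all ORFs. Of the 10 genes 4 passed at an adjusted p under 0.05 (Benjamini-Hochberg over all ORFs), all lower in the later cycle, against 0.179% of ORFs called lower, 0.146% called higher and 0.325% called at all, 20 ORFs in number. At an unadjusted p under 0.05 there were 9 of the 10 genes, and 1021 ORFs.

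Those 4 genes were MET3, both subunits of sulfite reductase, and MET17. MET3 had a mean of 1.74 ± 0.40 (SD, 6 arrays) in the earlier and 0.57 ± 0.16 in the later cycle, and fell by 1.18 ± 0.16 log2 (SE, 6 pairs), which is 2.26-fold (limma adjusted p = 0.032). MET10 fell from 1.68 ± 0.29 to 0.82 ± 0.17, by 0.86 ± 0.10 log2 or 1.82-fold (limma adjusted p = 0.032). MET5 fell from 1.41 ± 0.31 to 0.68 ± 0.13, by 0.73 ± 0.10 log2 or 1.66-fold (limma adjusted p = 0.032). For these 3 genes the values of the earlier and the later cycle did not overlap. How many of all ORFs share this was not counted, so it is given as a description only. MET17 fell from 1.31 ± 0.24 to 0.74 ± 0.23, by 0.57 ± 0.08 log2 or 1.48-fold (limma adjusted p = 0.032), with overlap at 70 min. Each of the 4 was lower in all 6 pairs.

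The differences of 5 further genes had the same sign and did not pass. They were -0.70 ± 0.16 log2 for MET14 (5 pairs, limma adjusted p = 0.139), -0.65 ± 0.19 for MET28 (0.175), -0.49 ± 0.16 for MET2 (0.199), -0.43 ± 0.11 for MET6 (0.139) and -0.42 ± 0.13 for MET16 (0.186). MET14, MET6 and MET28 were lower 60 min later in every measured pair and MET2 and MET16 in 5 of 6, so that 7 of the 10 genes were lower in all pairs, against 5.72% of ORFs. MUP1 differed by -0.03 ± 0.10 log2 (limma adjusted p = 0.897) and was lower in 2 of 6 pairs.

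**Figure D3:**
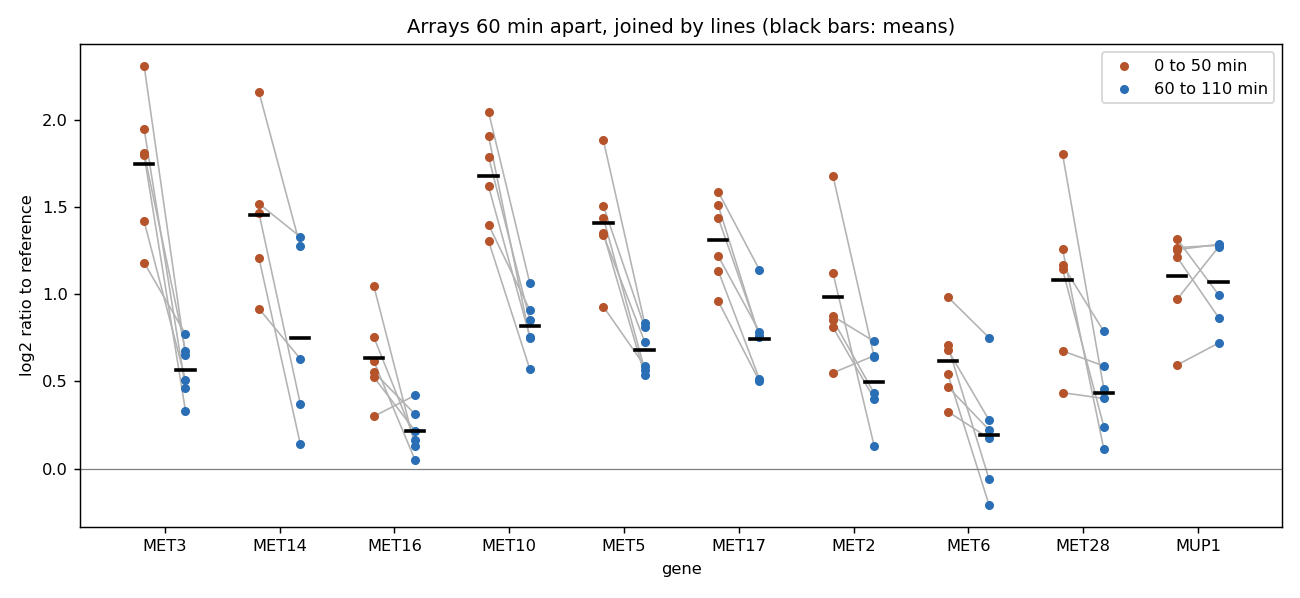
Log2 ratio to the reference (y) for each gene (x); points are arrays of 0 to 50 min and 60 to 110 min, grey lines join arrays 60 min apart, and black bars are means. All 6 lines fall for MET3, MET10, MET5 and MET17, whose mean differences run from -1.18 to -0.57, while those of MUP1 go both ways.

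**Figure D4:**
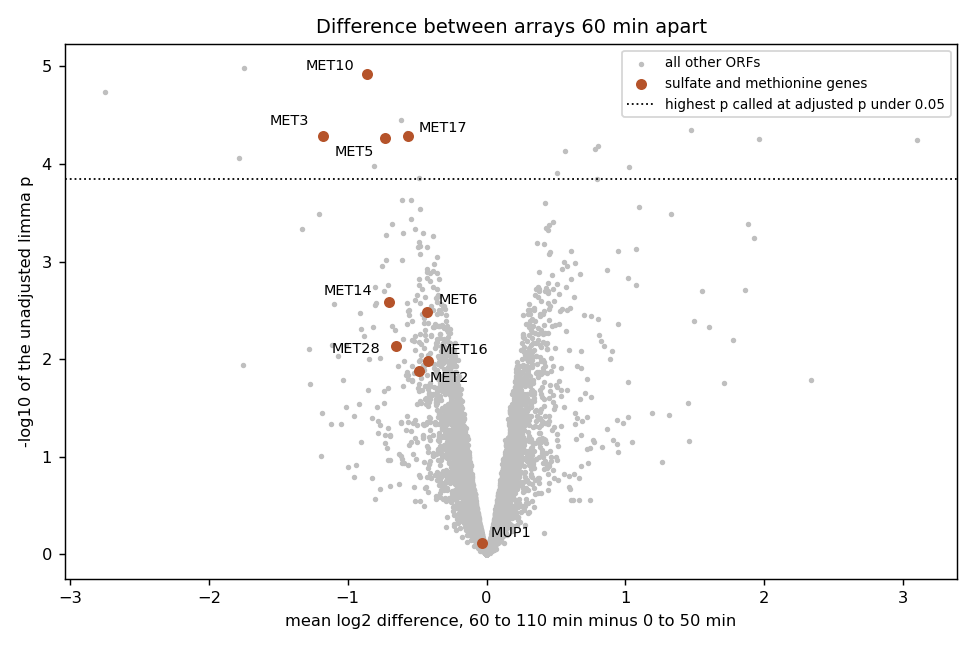
Mean log2 difference between arrays 60 min apart (x) against -log10 of the unadjusted limma p (y) for 6159 ORFs, with the 10 genes marked. MET10, MET3, MET5 and MET17 lie above the dotted line, the highest p among the 20 called ORFs, and MUP1 lies near the origin.

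In 4 of the 6 pairs the earlier array is from set A and the later from set B. In the other pairs, 40 against 100 min and 50 against 110 min, both arrays are from set B. Over those 2 pairs alone the median difference of the 10 genes was -0.45 against -0.02 for all ORFs. All 10 means were below 0, with -0.66 for MET3, -0.80 for MET10, -0.58 for MET5, -0.45 for MET17 and only -0.01 for MUP1. The share of ORFs with a mean below 0 was not counted. The 2 pairs differed: 10 of 10 genes were lower at 100 than at 40 min (median -0.60), and 7 of 10 at 110 than at 50 min (-0.22). MET16, MET2 and MUP1 rose in the latter pair, by 0.12, 0.10 and 0.30. Over the 4 pairs that cross the sets the median was -0.68, with -1.44 for MET3 and -0.94 for MET28, whose mean within set B was only -0.06. The calls themselves were fragile: limma called 0 of the 10 genes, and 0 ORFs in all, in several settings. Leaving out 1 array drops its whole pair, so arrays 60 min apart give the same fit. Without the pair of 0 and 60 min 4 genes were called (0.811% of ORFs), and without that of 50 and 110 min 3 were (0.26%). The count of 0 held without the pair of 10 and 70, 20 and 80, 30 and 90 or 40 and 100 min (9 genes each at an unadjusted p under 0.05). It also held with values at the limit kept (8 genes unadjusted) or with trend and robust shrinkage (9 unadjusted). With quantile-normalized arrays 1 gene passed, MET3 (limma adjusted p = 0.0325), against 0.373% of ORFs.

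A second comparison asked whether the transcripts changed over time in any smooth way, by a natural spline of time with 4 degrees of freedom. The test was passed by 7 of the 10 genes, MET3, MET14, MET16, MET10, MET5, MET17 and MET28 (limma, adjusted p from 0.00013 for MET3 to 0.0475 for MET17), against 8.60% of 6183 ORFs. Their fitted curves were highest between 0 and 20 min and lowest between 70 and 120 min. The height of the fitted curve had a median of 0.90 log2 over the 10 genes against 0.43 over all ORFs, with 1.57 for MET3, 1.47 for MET14 and 1.26 for MET10. MET2, MET6 and MUP1 did not pass (limma adjusted p = 0.131, 0.131 and 0.46). MET3, MET10 and MET5 kept their call whichever of the 13 arrays was left out, but the number of genes called was 3 without the array at 30 or 80 min, 4 without that at 10, 20, 40, 50, 90, 100 or 110 min and 9 without that at 0 min. The share of all ORFs called moved as well, and was 3.23% without the array at 30 min and 19.1% without that at 0 min.

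The same test was run with the stamp set in the fit. With the set as a term beside the spline, limma called 0 of the 10 genes (2 at an unadjusted p under 0.05), with MET3 at an adjusted p of 0.0619 and MET10 at 0.0744, and 2.54% of ORFs were called. The fitted heights had a median of 0.72 log2, against 0.90 without the set, with 1.47 for MET3, 1.35 for MET14 and 1.12 for MET10, and with 0.48 in place of 1.15 for MET28. Within set B alone, from 40 to 120 min and with 3 degrees of freedom, MET3 passed (1.01 log2, limma adjusted p = 0.0451) and MET10 did not (0.91 log2, adjusted p = 0.0556), against 0.726% of ORFs called. A straight line through set B gave slopes below 0 for 8 of the 10 genes, down to -0.64 log2 per h for MET10 and -0.63 for MET14, and above 0 for MET28 and MUP1. None passed by limma, nor did any of the 6198 ORFs in either direction, while 4 of the 10 genes had an unadjusted p under 0.05. Within the 4 arrays of set A no slope passed by limma, and 0 of the 10 had an unadjusted p under 0.05.

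The third comparison was for a rhythm of 60 min. By limma, with the array set in the fit, 0 of the 10 genes were periodic, against 5.47% of ORFs, and 0 had an unadjusted p under 0.05. Fitted peak-to-trough sizes ran from 0.07 ± 0.20 log2 (SE) for MET5 to 0.62 ± 0.28 for MET14, with a median of 0.23 against 0.25 over all ORFs. MUP1, with 0.45 ± 0.17 log2 and a fitted peak at 54.7 min, came closest (unadjusted p = 0.0566, adjusted p = 0.253). The median of the genes was lowest at 90 min (0.45), where 5 of the 10 had their lowest value. At 30 min, 60 min earlier, it was 1.21, between 1.26 at 20 min (9 genes) and 1.27 at 40 min.

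The fourth comparison concerned the pheromone-held cells at 0 min, tested as a deviation of that array from the periodic curve. None of the 10 genes passed by limma, against 5.22% of ORFs (3.14% higher and 2.08% lower), and 2, MET16 and MET2, had an unadjusted p under 0.05, as did 1177 of 6153 ORFs. All 10 deviations were below 0, against 50.4% of ORFs, from -0.67 ± 0.29 log2 (SE) for MET2 to -0.10 ± 0.28 for MUP1. Without the stamp set in the fit 9 of them were above 0, with a median of 0.27, so no direction can be given. Measured directly, 9 of the genes were higher at 10 than at 0 min, by 0.30 for MET6 to 0.81 for MET2, and MUP1 differed by -0.01, in each case between 2 single arrays. The share of all ORFs that were higher was not counted. The SD over all ORFs was 0.46 at 0 min and 0.63 at 10 min, and the median percentile of the genes was 98.7 on both arrays.

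The courses of the genes were compared by correlation. Over the 13 arrays the Pearson correlations of the 36 pairs without MUP1 ran from 0.512 (MET6 and MET28) to 0.956 (MET3 and MET5), with a median of 0.816. Within set B, over 9 arrays, their median was 0.622 and 6 of the 36 pairs were not positive, down to -0.341 for MET2 and MET28. For the 9 pairs with MUP1 the median was 0.0893 over all arrays and 0.437 within set B, where all 9 were positive. All points share their arrays and the slow decline, and these values are given as a description.

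**Figure D5:**
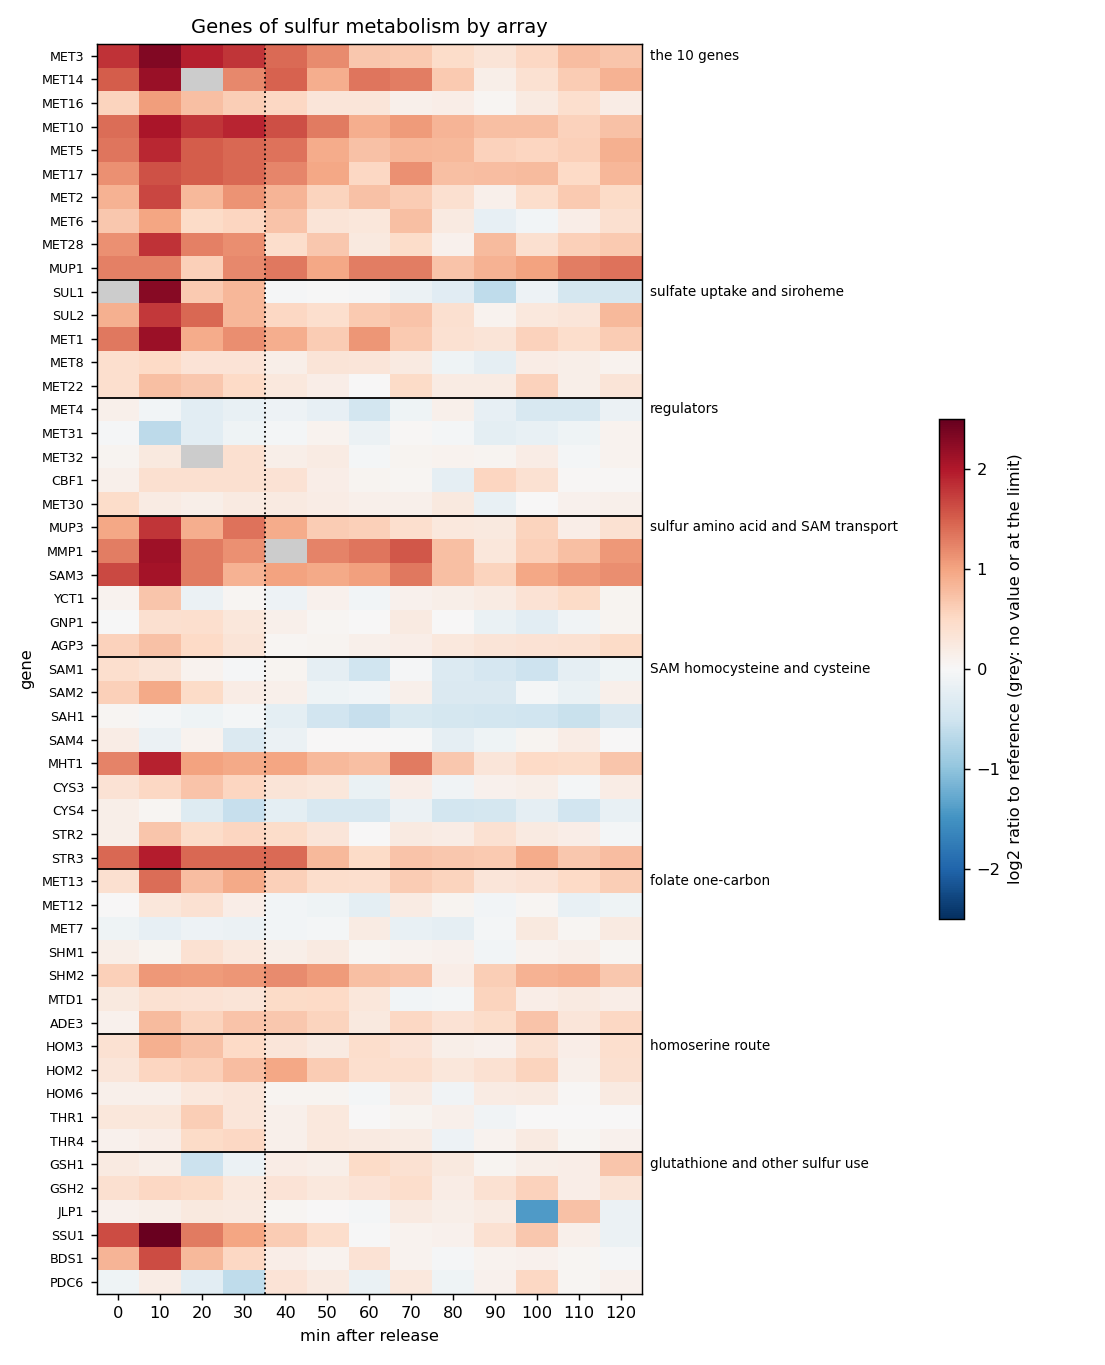
Log2 ratio to the reference (colour) of the 10 genes and of 43 other genes of sulfur metabolism (rows, by list) on each array (columns, min after release). Grey cells have no value or one at the limit, and the dotted line separates the stamp sets. Of the 43 genes 19 have their highest value at 10 min, as MET3 does, against 13.3% of ORFs. SUL1, MUP3, MHT1, STR3 and SSU1 are examples, and the regulators stay pale.

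Beyond the 10 genes, 43 others of sulfur metabolism were examined in 7 lists. All were tested, except that SUL1 had no usable value at 0 min, which left 42 for that comparison. By the limma spline test 11 of the 43 changed over time, against 8.60% of ORFs, with 22 at an unadjusted p under 0.05, against 1539 of 6183 ORFs. By the cycle test 1 fell and none rose, against 0.325% of ORFs, with 21 unadjusted, against 1021 of 6159 ORFs. By limma 0 of the 43 were periodic (6 unadjusted, against 1309 of 6183 ORFs) and 0 of 42 deviated at 0 min (8 unadjusted, against 1177 of 6153 ORFs). The median difference between the cycles was -0.23 over the 43 genes, against -0.01 over all ORFs, and 37 differences were below 0, against 53.3% of ORFs.

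The spline test was passed by 1 of 5 genes for sulfate uptake and siroheme, by 2 of 6 for transport of sulfur amino acids and S-adenosylmethionine, and by 3 of 6 for glutathione and other uses of sulfur. SUL1, a sulfate permease, passed the spline test (adjusted p = 0.00112). It stood at 2.27 at 10 min, 0.65 at 20 min and 0.83 at 30 min, and between -0.63 and -0.01 from 40 to 120 min. MUP3, a methionine permease of low affinity, ran from 1.79 at 10 min to 0.17 at 110 min (spline adjusted p = 0.034), and AGP3, an amino acid permease, from 0.74 to 0.05 (0.0493). SSU1, the sulfite exporter, went from 1.62 at 0 min and 2.47 at 10 min to -0.02 at 60 min and -0.15 at 120 min (spline adjusted p = 0.00407). BDS1, a sulfatase, ran from 1.63 at 10 min to -0.03 at 120 min (0.0372).

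In the list for S-adenosylmethionine, homocysteine and cysteine, 5 of 9 genes passed the spline test. STR3, the cystathionine beta-lyase that forms homocysteine, was at 1.97 at 10 min and 0.48 at 60 min (adjusted p = 0.00692). The S-adenosylmethionine synthetase genes SAM1 and SAM2 had means of 0.20 and 0.55 in set A and of -0.26 and -0.08 in set B (spline adjusted p = 0.0388 and 0.0305). SAH1, which recycles S-adenosylhomocysteine, had means of -0.04 and -0.44 (0.0366), and CYS3, the cystathionine gamma-lyase, of 0.53 and 0.10 (0.0409). MHT1, which makes methionine from S-methylmethionine, was the gene of the 43 that fell between the cycles, by 0.49 ± 0.08 log2 (SE, 6 pairs, limma adjusted p = 0.0437).

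Of the regulators MET4, MET31, MET32, CBF1 and MET30, none passed any of the 4 tests by limma, and at an unadjusted p under 0.05 there was 1, at 0 min. Their mean ratios lay between -0.18 and 0.21, and MET28 of the same complex averaged 0.75. CBF1 and MET31 had the widest spread of these 5 genes, with SDs over time of 0.22 and 0.19. None of the 7 folate and 5 homoserine genes passed either by limma (for the cycle test 2 in each list had an unadjusted p under 0.05). The folate genes with the widest spread were MET13, with a mean of 0.61 and 1.39 at 10 min, and SHM2, with a mean of 0.83. HOM3 and HOM2 of the homoserine route averaged 0.39 and 0.49. GSH1, the first enzyme of glutathione synthesis, passed the spline test with a higher mean in set B (0.28) than in set A (-0.08) (adjusted p = 0.0485).

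Genes for other amino acids served as a comparison, since they are known to answer to the general control by Gcn4. Of 22 such genes 3 passed the spline test, HIS4, HIS5 and LYS1, against 8.60% of ORFs. By limma 0 passed the cycle test (10 at an unadjusted p under 0.05, against 1021 of 6159 ORFs), with a median difference between the cycles of -0.20, beside -0.23 for the 43 sulfur genes. Of the 22, 15 were above 0 on every measured array, as were 9 of the 10 genes described here, against 7.29% of ORFs. At 0 min 5 of the 22 lay below the periodic curve by limma, against 2.08% of ORFs. The median deviation of the 22 was -0.25 log2, beside -0.45 for the 10 genes described here. These directions hold for the fit with the stamp set, and the fit without it was not examined for the 22. The difference between the lists was not tested.

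Across 5862 ORFs with a value on every array, the profiles most like the mean of the 10 genes were those of SER33 (Pearson r = 0.957 over 13 arrays), CST9 (0.937), MUP3 (0.936), GIT1 (0.932), DUG2 (0.918), STR3 (0.918), SAM2 (0.91), ARO5 (0.906), PAI3 (0.90) and YIL082W-A (0.90). The median over all ORFs was -0.01. SER33 encodes a 3-phosphoglycerate dehydrogenase of serine synthesis, GIT1 a permease for glycerophosphoinositol and DUG2 a protein of glutathione breakdown. MUP3, STR3 and SAM2 are among the 43 sulfur genes. SER33 and CST9 were also among the first 10 within set B alone, and CST9 spanned little, with an SD over time of 0.13. For MET17 alone the most alike ORFs outside the 10 genes were LYS20 (0.959), YML131W (0.949) and ZTA1 (0.935).

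Apart from the 4 genes above and MHT1, the cycle test called 6 further ORFs lower in the later cycle. They were MXR1, the methionine sulfoxide reductase (-0.57 ± 0.08 log2, SE, limma adjusted p = 0.032), GIT1 (-1.75 ± 0.19 log2), DIG2, YLR338W, YIL082W and YIL082W-A. MXR1, DIG2, YLR338W and YIL082W were in no list and are named after their values were seen.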

How the data were processed

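The authors deposited 1 log10 ratio per feature and array for 13 two-colour arrays, per the labels Cy5 for the time point and Cy3 for an asynchronous culture. The base was read from the values, which end at 2 and -2. The sources used here state no scanner, background correction, normalization, flags or spot averaging. The number of arrays limits the precision.

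Ratios were multiplied by 3.32 to give log2. Of 80493 values of ORFs, 272 lay within 0.01 of the limit and were set to missing. Control rows (12) were left out, and 5704 of 6205 ORFs were named through RefSeq (R64), with 501 keeping their ID. Natural spline, cosine and cycle models were fitted to all ORFs with at least 11 values (5 of 6 pairs for the cycle test) in limma 3.58.1 (R 4.3.3), with Benjamini-Hochberg adjustment over all ORFs and a threshold of 0.05, and were tested on simulated data. The error is the residual around a curve or between pairs, neighbouring time points are not independent, and p-values hold for this single time course. Other steps used Python 3.11.15, pandas 2.3.3 and matplotlib 3.10.9.

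The members, lists and tests were chosen with earlier results of these data known. Named genes are the 10 members, other sulfur genes called in any test, up to 2 per list otherwise by spread, and the 10 (for MET17, 3) most correlated ORFs. Alternatives are in the closing section. Some results for single genes of the comparison list for other amino acids are not reported here.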

Additional observations from a re-analysis of the deposited data

How the results depend on the processing

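No paired analysis by replicate number was possible because each time point has 1 array. The number of the 10 genes that were periodic or deviated at 0 min stayed 0 by limma under every alternative run, including each array left out in turn, except that the deviation at 0 min needs the 0 min array. The number that changed smoothly, 7 against 8.60% of ORFs, became 4 with values at the limit kept (7.34% of ORFs called). It was 2 with quantile-normalized arrays (8.56%) and 3 with a spline of 3 degrees of freedom (3.36%). With the stamp set added it was 0, against 2.54% of ORFs (2 at an unadjusted p under 0.05, median fitted height 0.72 in place of 0.90 log2). With 1 array left out it was between 3 and 9, while the share of ORFs ran from 3.23% to 19.1%. It was 1 within set B alone, against 0.726% of ORFs. A straight line, chosen after seeing the data, called 3 on all arrays (1.25% of ORFs), 0 in set B (4 unadjusted) and 0 in set A (0 unadjusted). The line called no ORF in either set alone. The number differing between the cycles, 4 against 0.325% of ORFs, became 0 with values at the limit kept (8 unadjusted) or with trend and robust shrinkage (9 unadjusted). In both of these settings 0 ORFs were called. It was 1 with quantile-normalized arrays (0.373% of ORFs) and 1 with 10 to 60 against 70 to 120 min (0.292%). With 1 array and so its whole pair left out it was 0 to 4 (0 to 0.811%). In these settings the 9 genes other than MUP1 kept a difference below 0. Of the 10 ORFs most like the genes, 2 were shared within set B alone and 3 by Spearman correlation. Apart from the arrays left out, the cause of these shifts was not tested. Arrays centred on their medians, or a value required on every array, left these counts within 1.5 times. With 1 array per time point and 13 in all, changes smaller than the residual spread cannot be seen.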
